A study of Bos taurus with 28 samples.

Results

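The genes described here carry glucose into the milk-secreting cell and turn it into lactose: SLC2A1, HK1, HK2, PGM1, UGP2, SLC35A2 and B4GALT1. Their probe sets were taken as all those to which the platform annotation gives exactly 1 gene symbol and that symbol is one of these 7. The rule found 9 of the 24128 probe sets on the array, for 6 of the 7 genes, of 9155 genes that have such a probe set. PGM1, SLC35A2 and B4GALT1 had 2 probe sets each, called a and b here in the order of their identifiers, and SLC2A1, HK1 and UGP2 had 1 each. The identifiers head the panels of the plot of values by genotype. HK2 had 0 probe sets under the rule, and 0 among the probe sets with several symbols, so it has no value here.

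RNA came from surgical mammary biopsies of 28 Holstein-Friesian cows in mid-lactation, at 153 ± 32.8 days in milk, which the labels give as fed the control diet. The groups were DGAT1 genotypes: 4 KK cows with lysine on both alleles, 13 KA cows with 1 allele of each kind, and 11 AA cows with alanine on both. DGAT1 encodes an enzyme of triacylglycerol synthesis, and the study asked which mammary genes differ in expression with its genotype. RNA of each cow went on its own Affymetrix Bovine Genome Array, which measures transcripts with sets of short probes in 1 colour. The genotypes are natural alleles that cows of the herd carry, and a biopsy holds secretory, stromal and immune cells together.

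Lactose is made in the Golgi of the secretory epithelium from glucose and UDP-galactose. Glucose enters the cell mainly through the facilitative transporter GLUT1, is phosphorylated by hexokinase, and passes through glucose 1-phosphate and UDP-glucose to UDP-galactose, which a transporter carries into the Golgi. There β-1,4-galactosyltransferase joined to α-lactalbumin, the product of LALBA, forms lactose synthase. Lactose draws water into milk and so largely sets its volume.

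Every value below is a log2 value as deposited, given relative to a baseline of its own for each probe set, so that 1 unit is a doubling. Cows can be compared within a probe set, but levels of different genes cannot. The rounding steps of the numbers gave a coarse bound on the subtracted baseline: it was at least 8 for SLC2A1, UGP2, both B4GALT1 probe sets and LALBA, a class that held 1524 of the 24016 probe sets that are not controls. HK1 and both probe sets of PGM1 and SLC35A2 were in the next class, with a baseline of at least 4, which held 12596.

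Among the 28 arrays, AA 2 and AA 9 differed widely from the rest. Their log2 values spread over probe sets with an SD of 0.86 and 0.78, against 0.21 to 0.35 in the remaining 26. In the control probe sets for actin and GAPDH, the 3′ end minus the 5′ end, a sign of RNA quality, came to 0.60 in AA 2 and -0.44 in AA 9, against -0.32 to 0.34. Mean log2 values of the secretory epithelium markers were -0.59 and -1.06 in AA 2 and AA 9, against -0.19 to 0.12 in the others. Those of the fibroblast and matrix markers were 1.25 and 1.88, against -0.54 to 0.49. The genotype differences below are therefore given with and without this pair. In tissue RNA, fewer secretory cells and less RNA per cell cannot be told apart.

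No genotype difference passed the test for any of the 9 probe sets. With limma and Benjamini-Hochberg adjustment over 24016 probe sets, 0 of 9 had an adjusted p under 0.05 in any of the 3 pairs of genotypes or in the slope per K allele, and the share called over the whole array was also 0% in each. At an unadjusted p under 0.05, 3 of 9 were higher in KA than in AA cows, both SLC35A2 probe sets and 1 of B4GALT1, against 10.8% of the array in that direction and 21.8% in either. Without AA 2 and AA 9 the count in either direction was 0 of 9, against 9.5% of the array. The genotypes' ranges overlapped in all 9 probe sets for every pair of genotypes. Over the whole array, 0.0916% of probe sets had KK and AA ranges that did not overlap, 0% had KA and AA ranges that did not, and 0.162% had KK and KA ranges that did not.

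**Figure D1:**
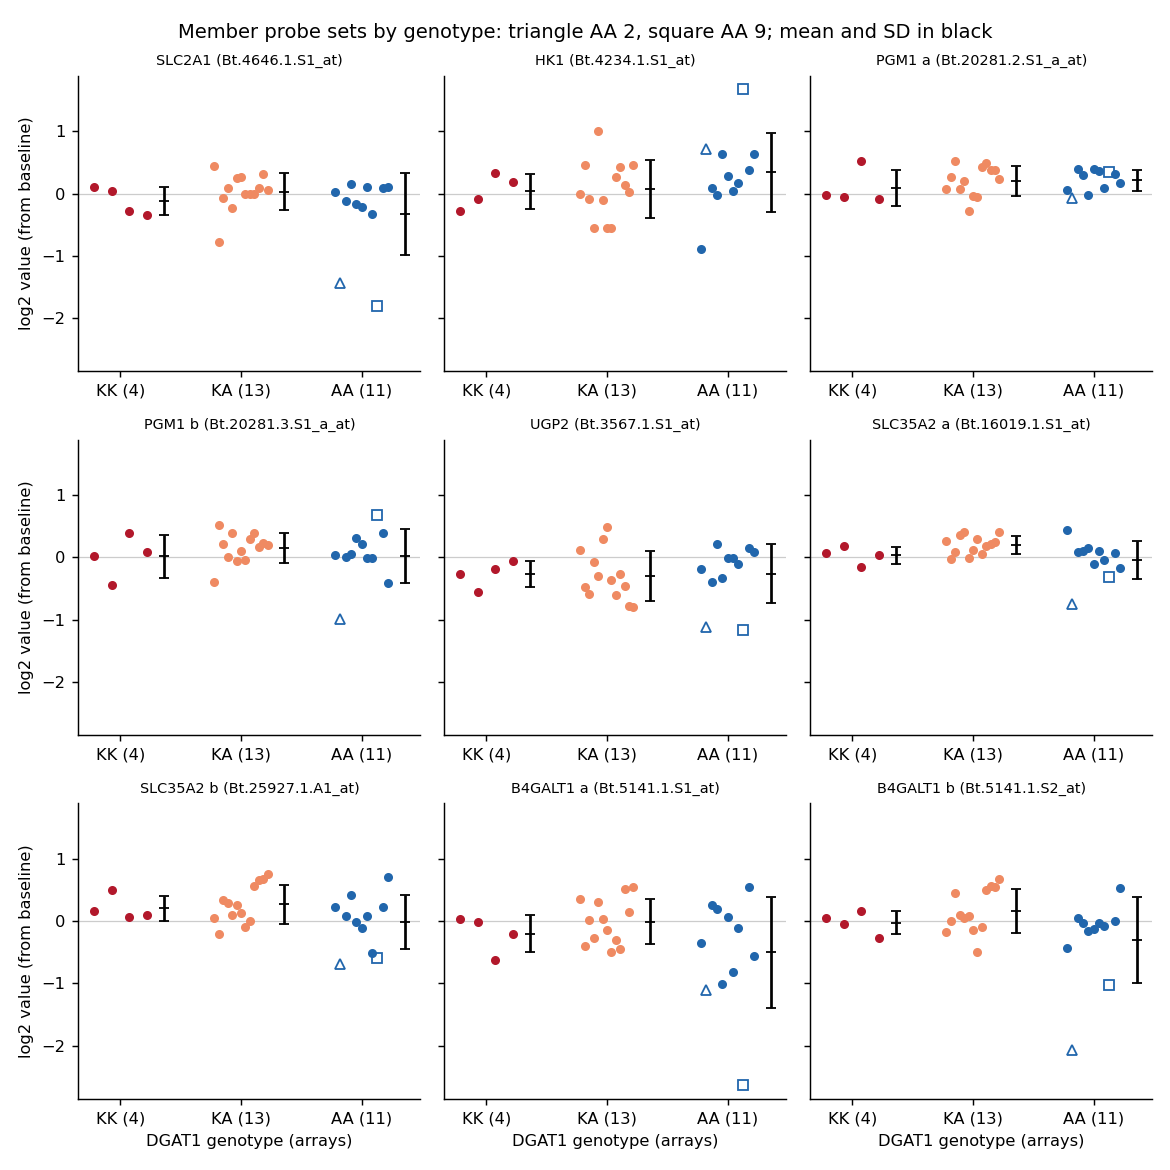
Log2 value relative to each probe set's baseline (y axis) by DGAT1 genotype (x axis, KK, KA and AA with the number of arrays) for the 9 probe sets, with the identifier in each panel title. Each point is 1 cow, the open triangle is AA 2, the open square is AA 9, and the black marks are the mean and SD of the genotype. Genotypes overlap in every panel, and AA 2 and AA 9 lie lowest of all cows for SLC2A1, UGP2, both SLC35A2 and both B4GALT1 probe sets.

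SLC2A1 encodes GLUT1, the main glucose transporter of the lactating gland. Its log2 values were 0.10, 0.05, -0.28 and -0.35 in the 4 KK cows. In KA cows they ran between -0.78 and 0.44 with a median of 0.06, and in AA cows between -1.80 and 0.15 with a median of -0.11. The lowest 2 of all 28 cows were AA 9 at -1.80 and AA 2 at -1.43, and the next lowest was KA 2 at -0.78. The mean was -0.12 ± 0.22 in KK (SD, n = 4), 0.03 ± 0.30 in KA (SD, n = 13) and -0.33 ± 0.66 in AA (SD, n = 11). Without AA 2 and AA 9, the AA mean was -0.04 ± 0.17 (SD, n = 9).

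The SLC2A1 difference KA minus AA was 0.36 (SE 0.18), with an interval of -0.02 to 0.74 at 95%, and limma gave an adjusted p of 0.247. It was 0.07 without AA 2 and AA 9, with an interval of -0.15 to 0.29. For KK minus AA it was 0.21 (SE 0.26, limma adjusted p = 0.912), and -0.08 without the pair, so its sign turned. In order of median the genotypes ran KA, AA and KK, and no neighbours in that order differed beyond their spread.

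HK1 encodes hexokinase 1, which phosphorylates glucose and so holds it in the cell. Its log2 values were -0.29, -0.10, 0.33 and 0.19 in KK cows. The KA values ran between -0.56 and 1.01 with a median of 0.03, and the AA values between -0.88 and 1.67 with a median of 0.28. AA 9 was the highest of the 28 cows at 1.67, while AA 2 at 0.72 was above 25 of the other 26. This put HK1 on the opposite side from SLC2A1 in both arrays.

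HK1 also varied among the remaining cows. Its SD over the 26 arrays was 0.42, above that of 94.3% of probe sets, where the median SD was 0.20. The lowest cow was AA 1 at -0.88 and the highest KA 5 at 1.01, both outside the KK range. KK minus AA was -0.30 (SE 0.29, limma adjusted p = 0.909), and KA minus AA was -0.27 (SE 0.20, limma adjusted p = 0.409). With the pair left out these differences were -0.11 and -0.08.

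PGM1 encodes phosphoglucomutase 1, which interconverts glucose 6-phosphate and glucose 1-phosphate. On PGM1 a the KK values were -0.02, -0.05, 0.52 and -0.09. KA values lay between -0.27 and 0.53 with a median of 0.24, and AA values between -0.08 and 0.39 with a median of 0.29. In 3 of the 4 KK cows the value was below the KA and AA medians, and KK 3 was close to the highest KA cow. KK minus AA was -0.12 (SE 0.13, limma adjusted p = 0.909) and -0.14 without AA 2 and AA 9. Neither AA 2 at -0.08 nor AA 9 at 0.35 left the range of the other 26 cows, -0.27 to 0.53, the only member probe set of which this held for both.

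On PGM1 b the KK values were 0.03, -0.44, 0.39 and 0.08. In KA cows they lay between -0.40 and 0.52 with a median of 0.20, and in AA cows between -0.98 and 0.68 with a median of 0.04. Both ends of the AA range were the arrays that stood apart: AA 2 was below all 26 others and AA 9 above all 26. KA minus AA was 0.13 (SE 0.14, limma adjusted p = 0.549), and KK minus AA was -0.01 (SE 0.19, limma adjusted p = 0.995). They were 0.09 and -0.05 without the pair.

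UGP2 encodes UDP-glucose pyrophosphorylase 2, which makes UDP-glucose from glucose 1-phosphate and UTP. Its log2 values were -0.26, -0.56, -0.19 and -0.06 in KK cows. Those of KA cows lay between -0.80 and 0.48 with a median of -0.37, and those of AA cows between -1.17 and 0.22 with a median of -0.10. The AA cows at the bottom were AA 9 at -1.17 and AA 2 at -1.12, below the lowest KA cow. KA minus AA was -0.03 (SE 0.16, limma adjusted p = 0.913) with all arrays and -0.23 (SE 0.13, limma adjusted p = 0.615) without AA 2 and AA 9. KK minus AA was -0.01 with all arrays and -0.20 without the pair.

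SLC35A2 encodes the Golgi UDP-galactose transporter, which brings the galactose donor to lactose synthase. On SLC35A2 a the KK values were 0.06, 0.18, -0.15 and 0.03. KA values lay between -0.03 and 0.41 with a median of 0.21, and AA values between -0.75 and 0.43 with a median of 0.07. All 4 KK cows were below the KA mean of 0.20, and all 13 KA cows were above the AA mean of -0.04. Without AA 2 and AA 9 the AA mean was 0.07, and 10 of the 13 KA cows were above it. KA minus AA was 0.24 (SE 0.09), a 1.18-fold difference with an unadjusted p of 0.0137 and an adjusted p of 0.167 by limma. Leaving out the pair gave 0.13, with an interval of -0.01 to 0.28. KK minus KA was -0.17 (SE 0.13, limma adjusted p = 1).

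SLC35A2 b had KK values of 0.17, 0.49, 0.06 and 0.09. The KA cows spanned -0.21 to 0.76 with a median of 0.26, and the AA cows spanned -0.69 to 0.70 with a median of 0.07. KA minus AA was 0.29 (SE 0.14), 1.22-fold, with an unadjusted p of 0.0489 and an adjusted p of 0.228 by limma. It was 0.15 without AA 2 and AA 9. KK minus AA was 0.22 (SE 0.20, limma adjusted p = 0.909) and 0.08 without the pair.

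B4GALT1 encodes the catalytic subunit of lactose synthase. On B4GALT1 a the KK values were 0.04, -0.02, -0.62 and -0.20. KA values lay between -0.50 and 0.54 with a median of 0.02, and AA values between -2.63 and 0.54 with a median of -0.36. AA 9 at -2.63 was 5.95-fold below the median of the other 26 cows, and AA 2 at -1.10 was 2.06-fold below it. This was the most variable member after HK1 over the 26 other cows, with an SD of 0.41, above that of 93.7% of probe sets. The next lowest were AA 5 and then AA 7 at -0.82. KA minus AA was 0.49 (SE 0.24), 1.41-fold, with an unadjusted p of 0.0505 and an adjusted p of 0.230 by limma, and 0.19 without the pair. For KK minus AA it was 0.30 (SE 0.34, limma adjusted p = 0.910), the highest of the 9, and -8.66e-05 without the pair.

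On B4GALT1 b the KK values were 0.05, -0.05, 0.16 and -0.27. The KA range was -0.49 to 0.67 with a median of 0.09, and the AA range was -2.07 to 0.52 with a median of -0.08. Here AA 2 was the lowest cow, 4.19-fold below the median of the others, and AA 9 at -1.03 the next, so that the order of the pair was the reverse of that on B4GALT1 a. KA minus AA was 0.46 (SE 0.20), 1.38-fold, with an unadjusted p of 0.0252 and an adjusted p of 0.193 by limma, and 0.19 without AA 2 and AA 9. The difference KK minus AA was 0.28 (SE 0.28, limma adjusted p = 0.909), and it was 0.01 without the pair.

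LALBA, the partner of B4GALT1 in lactose synthase, is not one of the 7 genes and is given beside them. Over the 26 cows without AA 2 and AA 9 its log2 values spanned only -0.33 to 0.10, with an SD of 0.09, and 0.537% of probe sets had a smaller one. It was -0.71 in AA 2 and -1.81 in AA 9. Its KK minus AA was 0.26 (limma adjusted p = 0.909) and 0.03 without the pair, and its KA minus AA was 0.24 (limma adjusted p = 0.304) and 0.02 without the pair.

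Across the 9 probe sets, the median of KK minus AA was 0.07, against 0.01 over all probe sets, and it was -0.05 without AA 2 and AA 9. The median of KA minus AA was 0.24, against 0.02 over all probe sets, and 0.09 without the pair. KK minus KA was below 0 in 8 of the 9 probe sets, all but UGP2, and its median was -0.14, against -0.0015 over all probe sets, of which 49.5% were above 0. In this model, which holds no array number, AA 2 and AA 9 enter the error of this difference but not its value. The count below 0 was 5 of 9 with lower against upper array numbers as a block, 4 of 9 with array number as a covariate, and 6 of 9 within the lower numbers, which held 2 of the KA cows. With the block HK1 was at 0.27 and SLC35A2 b at 0.17. The values with the block do depend on AA 2 and AA 9. Without the pair the block gave 4 of 9 below 0, with HK1 at 0.08 and SLC35A2 b at 0.29. SLC2A1 went from -0.20 to 0.02 and B4GALT1 a from -0.44 to -0.09. With all arrays and no block, KK minus KA ran from -0.19 to 0.03, and at an unadjusted limma p under 0.05 the counts were 0 of 9 members and 2.84% of the array. The same count was 0 of 9 for KK minus AA, against 3.51% of the array, and 0 of 9 for the slope per K allele, against 9.16%. With AA 2 and AA 9 left out, these counts were again 0 of 9, against 2.76% for KK minus AA, 6.08% for KK minus KA and 3.26% for the slope. These comparisons share their AA, KA or KK cows and are not independent of each other. The KA cows enter KA minus AA and KK minus KA with opposite signs. A high KA mean thus raises the former and lowers the latter.

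**Figure D2:**
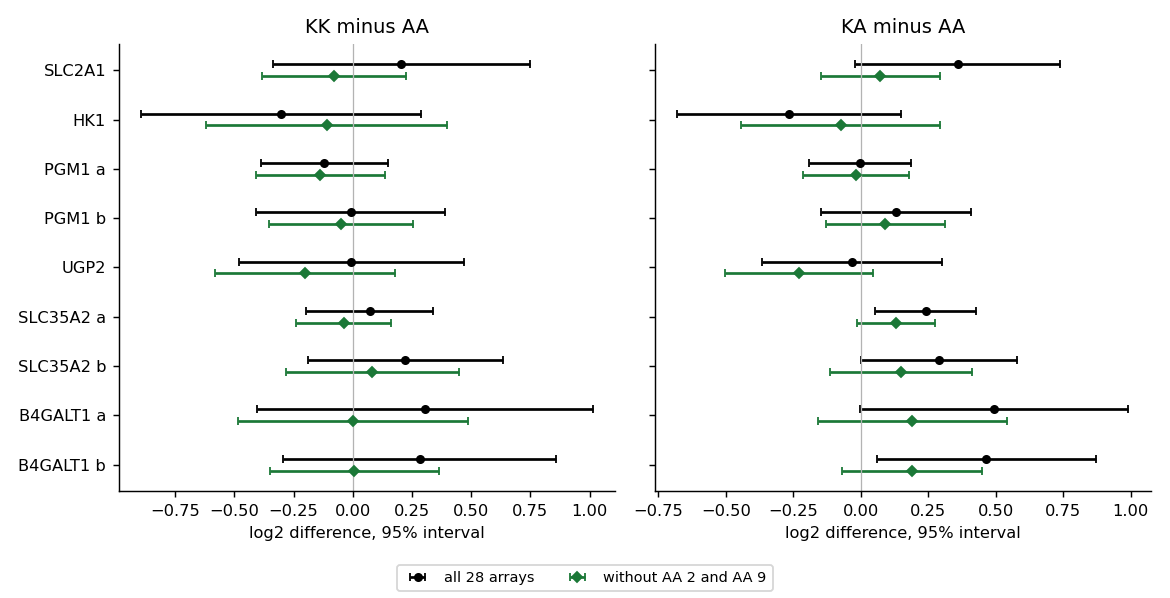
Log2 difference (x axis) with its 95% limma interval for KK minus AA and KA minus AA in each of the 9 probe sets (y axis). Black circles use all 28 arrays and green diamonds leave out AA 2 and AA 9. The KA minus AA differences of both B4GALT1 probe sets lie at 0.49 and 0.46 with all arrays and at 0.19 without the pair, and every interval without the pair includes 0.

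Genotype and array number ran together. The sample titles number the arrays 29 to 56, and no source used here says what the number marks. All 4 KK cows, 2 KA cows and 8 AA cows had numbers up to 42, and 11 KA cows and 3 AA cows had numbers from 43. Within the lower numbers, KA minus AA was 0.08 for SLC2A1, 0.12 and -0.02 for SLC35A2 a and b, and 0.34 and 0.27 for B4GALT1 a and b. Within the upper numbers, where AA 9 was 1 of the 3 AA cows, the same differences were 0.60, 0.35, 0.22, 0.88 and 0.37. Without AA 2 and AA 9 they were -0.09, 0.02, -0.11, 0.23 and 0.03 in the lower range and -0.03, 0.27, -0.12, 0.00 and -0.06 in the upper one. For SLC2A1 the sign turned with the pair in both ranges, and for SLC35A2 b and B4GALT1 b it turned in the upper range. PGM1 b also turned in both when the pair was left out, from 0.11 to -0.03 in the lower range. In the upper range PGM1 b went from -0.04 to 0.19. UGP2 turned in the lower range, from 0.06 to -0.07. HK1 had opposite signs in the ranges, with KA minus AA at 0.09 in the lower and -0.85 in the upper one, and at 0.18 and -0.47 without the pair. KK minus AA could be formed only in the lower range. Without AA 2 it was below 0 there in 6 of the 9 probe sets. It was -0.04 for SLC2A1, -0.01 for HK1, -0.13 and -0.07 for PGM1 a and b, and -0.15 for UGP2. For SLC35A2 a and b it was -0.07 and 0.18, and for B4GALT1 a and b 0.05 and 0.09.

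AA 2 and AA 9 had low values for most of the route. Both were below all other 26 cows in 6 of the 9 probe sets: SLC2A1, UGP2, both of SLC35A2 and both of B4GALT1. On the whole array this held for 17.7% of probe sets. Both were above all others in 0 of the 9, against 18.4% of probe sets. The fold below the median of the other cows was 2.76 and 3.56 for SLC2A1 in AA 2 and AA 9, 1.86 and 1.92 for UGP2, and 1.80 and 1.34 for SLC35A2 a. These arrays were AA cows by the labels, and the other 9 AA cows had SLC2A1 values between -0.33 and 0.15.

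The epithelial markers of these 2 arrays did not all move together. Of 16 secretory epithelium probe sets, 10 were below all other cows in both arrays, LALBA among them. BTN1A1, which encodes butyrophilin of the milk fat globule membrane, was at -3.59 and -5.02, against -0.33 to 0.24 in the other cows. In contrast, 2 epithelium probe sets were above all other cows in both: KRT18, a luminal keratin, at 2.32 and 2.98, and EPCAM, an epithelial adhesion protein, at 1.43 and 1.22. In the fibroblast and matrix list, 11 of 13 probe sets were above all other cows in both arrays. The adipocyte list was lower, at -0.75 and -1.02, against -0.37 to 0.26, and the myoepithelium and smooth muscle list was at 0.53 and 1.32, against -0.50 to 0.64. The part of cell makeup and of RNA quality in the low SLC2A1, UGP2, SLC35A2 and B4GALT1 values was not tested.

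**Figure D3:**
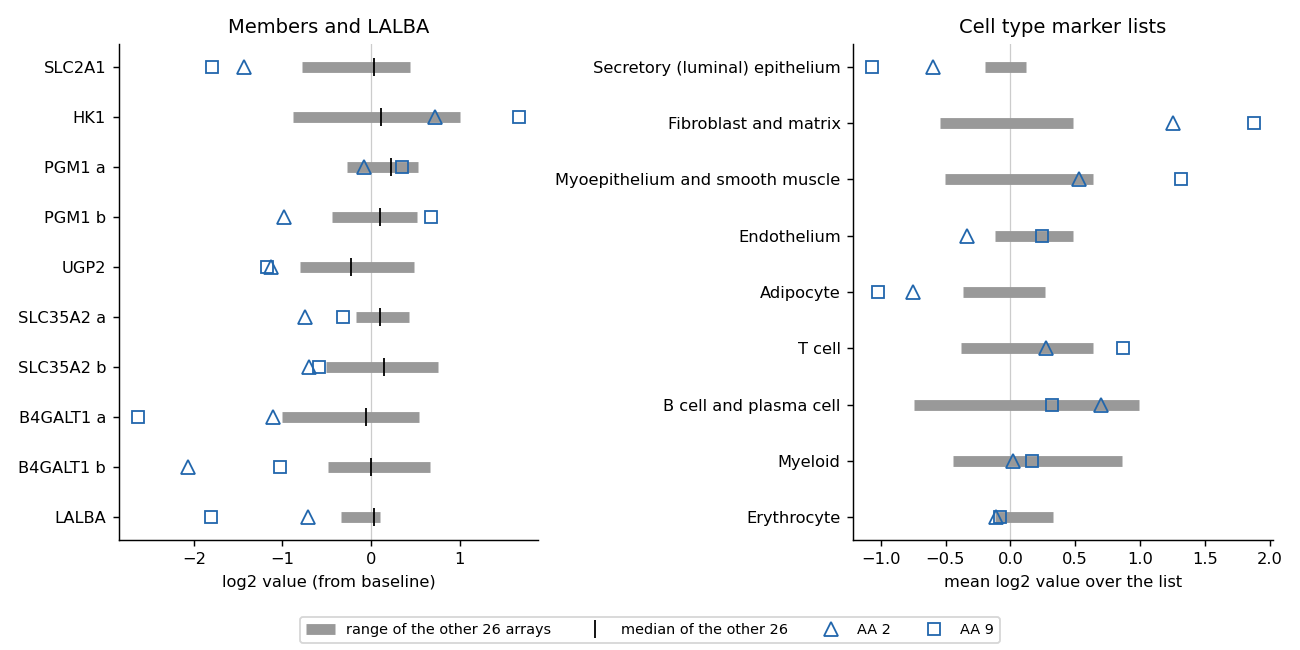
Left, log2 values (x axis) of the 9 member probe sets and LALBA (y axis). Right, mean log2 value over each cell type marker list. Grey bars span the other 26 arrays, black ticks are their medians (left only), open triangles are AA 2 and open squares AA 9. SLC2A1, UGP2, SLC35A2, B4GALT1 and LALBA lie to the left of the grey bars in both arrays, HK1 lies to the right in AA 9, and the fibroblast and matrix list lies to the right in both.

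Arrays numbered 52 to 56 were high in SLC35A2 b and B4GALT1 b. These are the cows KA 10, KA 11, KA 12, KA 13 and AA 11, and they were singled out after the values had been seen, so what follows is a description. On SLC35A2 b they had 0.55, 0.65, 0.67, 0.76 and 0.70, and the highest of all other cows was KK 2 at 0.49. On B4GALT1 b they had 0.49, 0.56, 0.54, 0.67 and 0.52, and the highest of all other cows was KA 3 at 0.46. These 5 arrays were all above the other 23 in 2 of the 9 probe sets, and in 0.204% of the probe sets on the array. They were all below the other 23 in 0 of the 9, and in 0.00416% of the array.

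The a probe set of each gene did not show this. On SLC35A2 a the 5 cows lay between -0.17 and 0.40. AA 11 at -0.17 was the lowest cow apart from AA 2 and AA 9, and the other 4 lay within the range of the other 21 cows. On B4GALT1 a they lay between -0.56 and 0.54, also within it. UGP2 was lowest in KA 12 and KA 13, at -0.78 and -0.80, apart from AA 2 and AA 9. It was -0.46 in KA 11, -0.27 in KA 10 and 0.09 in AA 11. KA 2, KA 3, KA 9 and KK 2, outside these array numbers, were lower than KA 11. The mean epithelium marker value of the 5 cows lay between -0.06 and 0.12, and that of AA 11 was the highest of all 28 cows.

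**Figure D4:**
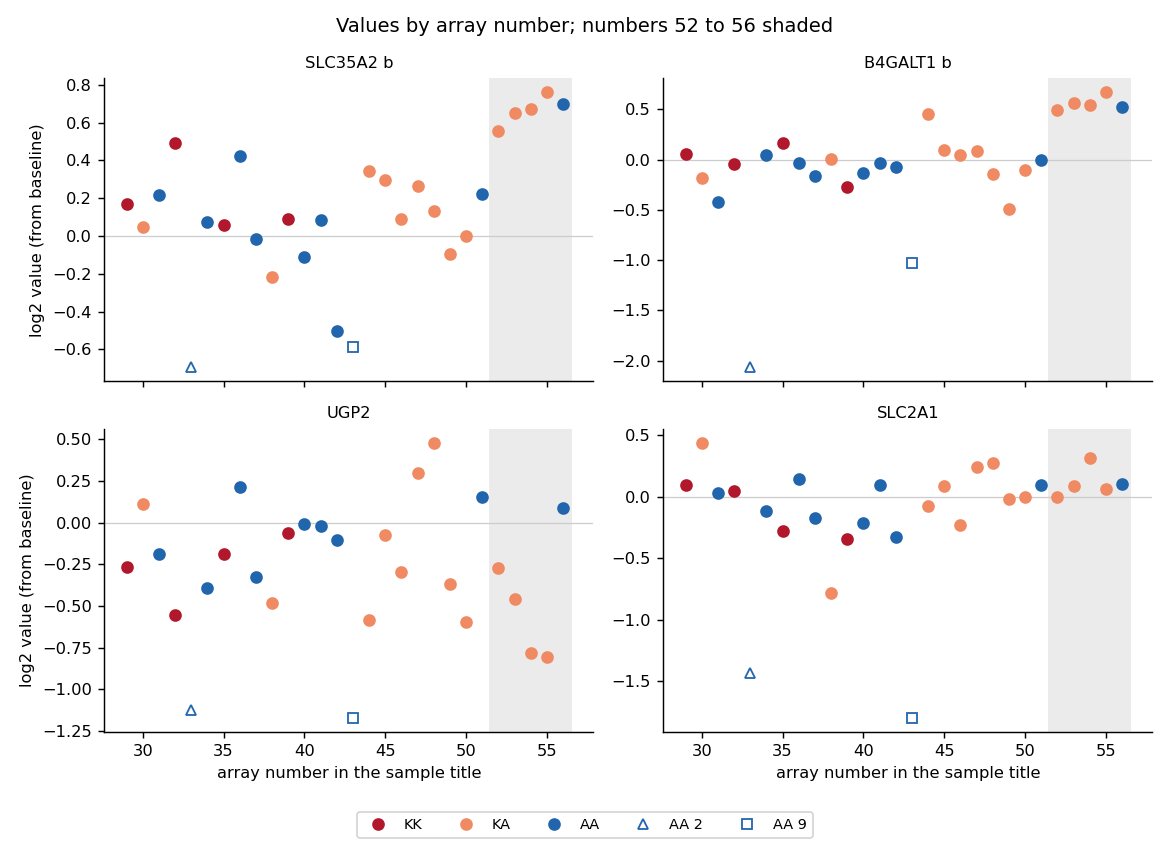
Log2 value (y axis) against the array number in the sample title (x axis) for 4 probe sets, with numbers 52 to 56 shaded. Red, orange and blue points are KK, KA and AA cows, the open triangle is AA 2 and the open square AA 9. In the shaded range SLC35A2 b lies between 0.55 and 0.76 and B4GALT1 b between 0.49 and 0.67, above all other cows, while SLC2A1 lies among the others.

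Across cows the genes of the route did not vary as one. Correlations were taken over the 26 cows without AA 2 and AA 9, since a pooled value would mostly show that pair, for all 45 pairs among the 9 probe sets and LALBA. One pair had a permutation p of Pearson r under 0.05 after Benjamini-Hochberg adjustment over the 45, and 7 had an unadjusted one. It was SLC35A2 b with B4GALT1 b, with Pearson r = 0.722 (permutation p = 7e-05, adjusted 0.00315) and Spearman rho = 0.678 (permutation p = 0.00028, adjusted 0.0126). Without AA 8 and KA 13, the 2 cows farthest from the SLC35A2 median, r was 0.732. It did not hold within both ranges of array numbers: r was -0.04 over the 13 cows with the lower numbers and 0.95 over the 13 with the upper ones. Without the 5 arrays numbered 52 to 56 it was 0.291 over 21 cows, so the relation rested on those arrays.

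SLC2A1 was positively related to the same SLC35A2 probe set, with r = 0.536 (permutation p = 0.00466, adjusted 0.0922) and rho = 0.553 (permutation p = 0.00365, adjusted 0.0612), which did not pass the adjustment. Within the lower and upper array numbers r was 0.564 and 0.312, and without KA 1 and KA 2 it was 0.602. SLC2A1 and PGM1 b had r = -0.50 (permutation p = 0.0102, adjusted 0.0922) and rho = -0.43 (permutation p = 0.0291, adjusted 0.217). Without KA 1 and KA 2, the cows with the highest and lowest SLC2A1 of the 26, that r was -0.25. SLC2A1 and HK1 had r = -0.40 (permutation p = 0.0453, adjusted 0.271) and rho = -0.42 (permutation p = 0.0337, adjusted 0.217). Its r was -0.53 within the lower numbers and -0.46 within the upper ones. PGM1 a and B4GALT1 b had r = 0.498 (permutation p = 0.00969, adjusted 0.0922) and rho = 0.476 (permutation p = 0.0148, adjusted 0.133). That r was 0.551 within the lower numbers, 0.531 within the upper ones and 0.475 without arrays 52 to 56. HK1 and B4GALT1 b had r = 0.396 (permutation p = 0.044, adjusted 0.271) and rho = 0.279 (permutation p = 0.167, adjusted 0.396). By rank, HK1 and PGM1 b were more alike, with rho = 0.550 (permutation p = 0.00408, adjusted 0.0612). Their r was 0.377 (permutation p = 0.0572, adjusted 0.271), with 0.480 within the lower numbers and 0.292 within the upper ones.

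Probe sets of the same gene did not pass the adjusted threshold with each other over the 26 cows. The PGM1 pair had r = 0.498 (permutation p = 0.00931, adjusted 0.0922) and rho = 0.530 (permutation p = 0.00584, adjusted 0.0657). The B4GALT1 pair had r = 0.290 (permutation p = 0.151, adjusted 0.392) and rho = 0.258 (permutation p = 0.201, adjusted 0.411). For the SLC35A2 pair r was 0.286 (permutation p = 0.157, adjusted 0.392) and rho 0.324 (permutation p = 0.107, adjusted 0.396). LALBA had r between -0.26 and 0.31 with the 9 probe sets, and 0 of these had an unadjusted permutation p under 0.05. It varied little over the 26 cows, with an SD of 0.09. Its lowest value, -0.33 in AA 6, lay apart from the next, -0.11 in KA 13. These r values therefore cannot decide whether LALBA varied with the route.

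**Figure D5:**
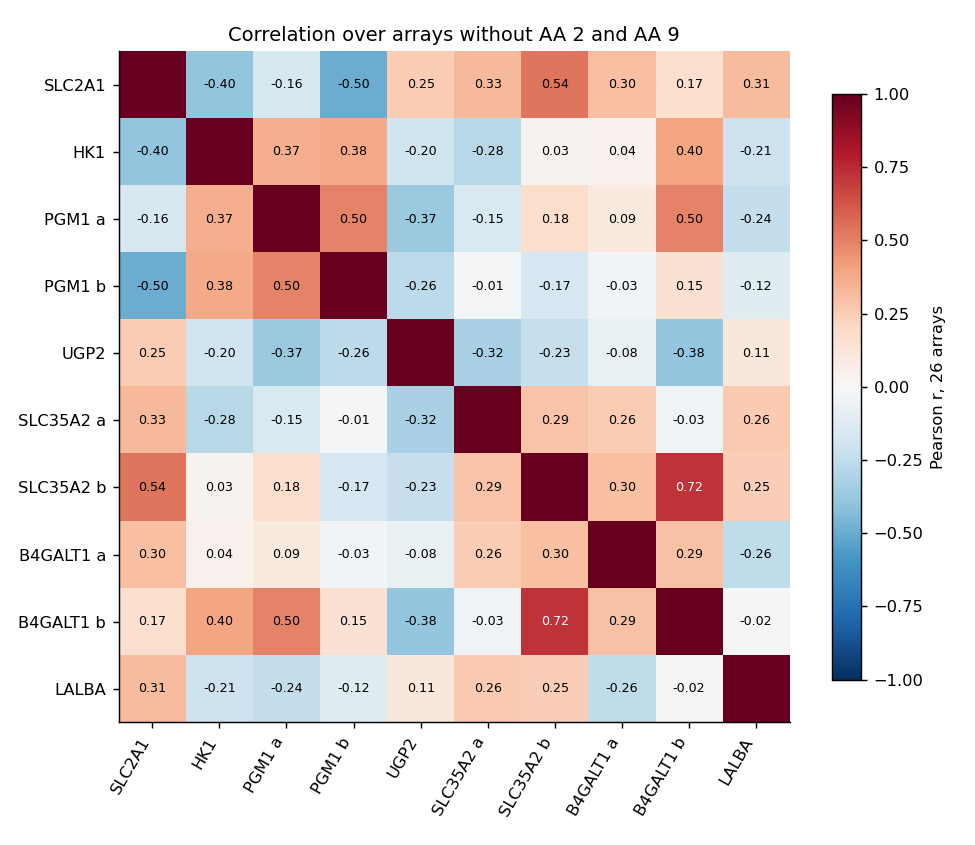
Pearson r over the 26 arrays without AA 2 and AA 9 between the 9 member probe sets and LALBA, from blue (-1) to red (1), with r written in each cell. SLC35A2 b with B4GALT1 b is at 0.72, the probe sets of 1 gene are at 0.50 (PGM1) and 0.29 (SLC35A2 and B4GALT1), and LALBA lies between -0.26 and 0.31.

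For each probe set the 3 genes with the most similar profile over the same 26 cows were taken, as a description. SLC2A1 was most like CD36, which encodes a fatty acid translocase of the milk fat globule membrane, at r = 0.830, then the cell surface proteoglycan gene SDC2 at 0.830 and the protease gene PRSS12 at 0.792. HK1 had the closest neighbours of the 9: HMGN1, which encodes a nucleosome-binding protein, at 0.911, CDH1, which encodes E-cadherin, at 0.910, and the apolipoprotein gene APOE at 0.907. UGP2 was most like SREK1IP1 at 0.806, the glycerol kinase gene GK at 0.779 and the transcription factor gene HLF at 0.774.

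Nearest to SLC35A2 b were DOLPP1, which encodes a dolichyl pyrophosphate phosphatase, at 0.891, RAB11FIP5 at 0.879 and SLC35C1, which encodes the Golgi GDP-fucose transporter, at 0.875. For B4GALT1 b they were the creatine transporter gene SLC6A8 at 0.906, the Golgi protease gene FURIN at 0.898 and CUL7 at 0.874. The other probe sets of these genes had other neighbours: SLC35A2 a was most like the glycolipid transfer protein gene GLTP at 0.783 and NR1H3, which encodes a liver X receptor, at 0.763, and B4GALT1 a was most like CHSY1, a chondroitin synthase gene, at 0.688. PGM1 a was most like TAFA5 at 0.721, and PGM1 b was most like PARP1, which encodes a DNA repair enzyme, at 0.787.

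The rest of the pathway was taken from 5 lists, and 0 of their probe sets passed the adjusted limma threshold in any comparison. The slope per K allele is given below for genes with an unadjusted limma p under 0.05, a level that 9.16% of the array reached. Of 16 probe sets for 11 of 18 other glucose transporter and hexokinase genes, 1 had a positive such slope, HK3 at 0.15, and 1 a negative one, HKDC1 at -0.15. Both encode enzymes that phosphorylate glucose, HK3 mainly in blood cells. Of 25 probe sets for 18 of 26 nucleotide sugar and galactose genes, 3 were positive: GFPT1, the first enzyme of hexosamine synthesis, at 0.23, and the GDP-mannose pyrophosphorylase genes GMPPA at 0.17 and GMPPB at 0.27. PYGL, liver glycogen phosphorylase, was negative at -0.36.

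Another list held Golgi galactosyltransferases, sugar transporters and lactose synthase partners, with 21 probe sets for 15 of 20 genes. In it 2 slopes were positive: B4GALT5, a lactosylceramide synthase gene, at 0.16, and SLC35B1, which encodes a nucleotide transporter, at 0.25. The 3 negative ones were B4GALT4 at -0.41, SLC35A5 at -0.28 and the CMP-sialic acid transporter gene SLC35A1 at -0.21. Of 15 probe sets for 13 of 14 glycolysis genes 1 was positive, the aldolase gene ALDOC at 0.47. Of 37 probe sets for 15 of 18 regulators of glucose uptake 2 were positive, the insulin receptor gene INSR at 0.11 and the coactivator gene PPARGC1A at 0.23. For all 14 of these genes limma gave an adjusted p of 0.526, and without AA 2 and AA 9 every one of these slopes was closer to 0, the positive ones at 0.07 to 0.23 and the negative ones at -0.19 to -0.08. Of these genes 6 had further probe sets, none with an unadjusted p under 0.05. The others of SLC35A5 had slopes from -0.05 to 0.10 and those of INSR from -0.15 to 0.08, so that signs differed within both genes. The others of B4GALT5, GFPT1, PPARGC1A and PYGL had the sign given above.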

How the data were processed

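The values were read from the deposited table of log2 values, 1 column per array. The authors used Bioconductor 2.7 and R 2.13, per the labels' protocols, and the submitters' processing notes name RMA and GCRMA without saying which gave these values. The values are relative to a baseline of each probe set, which no label mentions, so absolute levels and signal over background are unknown. No number of reads or other depth applies to arrays; the number of cows limits the precision. Without the 112 controls, 24016 probe sets were tested. Of these, 13292 had 1 gene symbol in the platform annotation, 86 several and 10638 none. The level classes come from the rounding steps of single-precision numbers. Sequences and positions of the probe sets were not used here.

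Groups come from the genotype in the labels. Replicate numbers, such as AA 2, were given in accession order and only name a cow. One limma 3.58.1 model in R 4.3.3 (lmFit and eBayes) with a mean per genotype gave the pairwise differences, and a second gave the slope on 0, 1 or 2 K alleles, with Benjamini-Hochberg adjustment over the 24016 probe sets, a threshold of 0.05 and no covariate. Correlations used 100000 permutations, in Python 3.11.15. The genes, the pathway and marker lists and the rules were chosen with earlier results of these data known, among them that AA 2 and AA 9 stand apart. Every member probe set was described, other pathway genes were named at an unadjusted slope p under 0.05, and LALBA always.

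Both models were tested on simulated data before use. A log2 difference of 0.5 was recovered in 40% of changed probe sets for KK minus AA, 73% for KA minus AA and 42% for KK minus KA. A slope of 0.5 per K allele was recovered in 94%. The simulated noise was independent between cows and probe sets and held no outlying array, unlike these data. Alternatives were quantile normalization, centring, a filter on the SD, robust variances, array weights, array number as a block or covariate, the 3′ minus 5′ control difference, fits of 2 groups, and leaving arrays out.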

Additional observations from a re-analysis of the deposited data

Results flagged for a closer look

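One value stood out within the 4 KK cows: KK 3 had 0.52 on PGM1 a, against -0.02, -0.05 and -0.09 in the other 3. The gap to the next cow was 0.887 of the range of the group, beyond Dixon's 95% critical value for 4 samples. Chance gives a gap beyond that critical value in about 1 in 20 groups, and 10 probe sets were looked at. On PGM1 b the same cow was also the highest KK cow, at 0.39, but with KK 2 at -0.44 at the other end.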

How the results depend on the processing

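In no alternative did any of the 9 probe sets pass the adjusted threshold in any comparison. At an unadjusted limma p under 0.05, the count for KA minus AA was 3 of 9 in the main model. It was 0 to 4 over the alternatives that leave out no single array, with 1 for array number as a covariate. The share of the whole array at this level was taken for the main model, 21.8%, and for the fit lacking AA 2 and AA 9, 9.5%. It was not taken for the other alternatives, so their counts cannot be set against the array. The 4 KK cows limit the precision: the widest KK minus AA interval, for B4GALT1 a, ran from -0.41 to 1.01 on the log2 scale. No paired analysis was possible because the replicate numbers were given in accession order and pair no cows. The count over the whole array, 0 in each comparison, changed for KA minus AA to 47 with quantile normalization, 5 without the probe sets of smallest SD, 104 with array weights, 5 with array number as a covariate, and 1 without AA 2 and AA 9 with the array number block, and for KK minus KA to 3 with array weights. Leaving out 1 array gave 0 to 525 for KA minus AA, with 525 without AA 1, 5 without KA 5 or without KK 3, and 1 without AA 7 or without KA 9.

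Some signs turned, all of differences that had not passed the test, and the cause was not tested. For KK minus AA with array weights, SLC2A1 was -0.0234, B4GALT1 a -0.0127 and B4GALT1 b -0.00207. PGM1 b was 0.0441 with lower against upper array numbers as a block, 0.0703 with array number as a covariate and 0.0033 with the 3′ minus 5′ difference. With AA 2 and AA 9 left out, SLC2A1 was -0.081, SLC35A2 a -0.0385 and B4GALT1 a -8.66e-05. These were -0.0628, -0.0682 and -0.0457 when arrays 52 to 56 were left out as well, and with AA 2 and AA 9 left out and the block SLC2A1 was -0.0345 and SLC35A2 a -0.0439. For KA minus AA, UGP2 was 0.0213 with the block, and PGM1 b -0.0102 without AA 2, AA 9 and arrays 52 to 56. With the pair left out and the block, SLC2A1 was -0.0584, SLC35A2 b -0.12 and B4GALT1 b -0.0173. The settings without arrays 52 to 56, and those that join the pair with the block, were added after the data had been seen. Leaving out 1 array moved KK minus AA between -0.13 and 0.14 for PGM1 b, -0.10 and 0.0908 for UGP2, and -6.8e-05 and 0.13 for SLC35A2 a. It moved KA minus AA between -0.0308 and 0.0381 for PGM1 a and between -0.12 and 0.0148 for UGP2. For KK minus KA, the array number block turned HK1 to 0.27, PGM1 b to 0.03, UGP2 to -0.05, SLC35A2 b to 0.17 and B4GALT1 b to 0.02. The array number covariate turned HK1 to 0.23, PGM1 b to 0.02, SLC35A2 b to 0.24 and B4GALT1 b to 0.24. UGP2 was -0.00094 with quantile normalization and -0.03 with array weights. HK1 was 0.01 with array weights and 0.02 with the 3′ minus 5′ difference. Without AA 2, AA 9 and arrays 52 to 56, HK1 was 0.05, UGP2 -0.10 and SLC35A2 b 0.11. With the pair left out and the block, SLC2A1 was 0.02, HK1 0.08, SLC35A2 b 0.29 and B4GALT1 b 0.10. The number of the 9 with KK minus KA below 0 was 4 to 9 over these alternatives. For the slope per K allele, leaving out the pair turned SLC2A1 to -0.02 and PGM1 b to -0.0006. Array weights turned the slope of PGM1 b to -0.05. Without AA 2, AA 9 and arrays 52 to 56 the slope was -0.02 for SLC2A1, -0.05 for PGM1 b, -0.02 for SLC35A2 a and -0.01 for B4GALT1 a. With the pair left out and the block it was -0.02 for SLC2A1 and -0.004 for PGM1 b.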

Other observations

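The rest of the pathway split in both directions in AA 2 and AA 9. Both arrays were below all other 26 cows in 5 of 16 probe sets for other glucose transporters and hexokinases. The same held for 6 of 25 for nucleotide sugar and galactose metabolism. It held for 7 of 21 for Golgi galactosyltransferases, sugar transporters and lactose synthase partners. It also held for 1 of 15 for glycolysis and 15 of 37 for regulators of glucose uptake. Both arrays were above all others in 1, 3, 4, 2 and 0 of these lists' probe sets, in the same order. Over the array the shares were 17.7% below and 18.4% above.

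The genes named next were chosen after their values were seen. SLC5A1, the sodium-glucose cotransporter gene, was at -1.81 and -1.85 in AA 2 and AA 9, against -0.94 to 0.59 in the other cows. On its other probe set AA 9 was at -1.67 but AA 2 at -0.17, inside the range of the others, -1.03 to 0.95. GALM, which encodes galactose mutarotase, was at -2.02 and -2.93, against -0.62 to 0.66. GALK1, which encodes galactokinase, was at -1.12 and -1.19, against -0.50 to 0.49. Its other probe set did not show this, with AA 2 at -0.50 and AA 9 at 0.47, against -0.14 to 0.52. On the other side, UGDH, whose enzyme turns UDP-glucose into UDP-glucuronic acid, was at 2.38 and 1.79, against -0.93 to 1.04. SLC35A1, the CMP-sialic acid transporter gene, was at 1.21 and 1.01, against -0.51 to 0.38. The part of cell makeup in these values was not tested.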
